A study of Mus musculus with 6 samples.

Results

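Described here are 10 genes whose products restrain the kinases ERK, JNK and p38 or the steps that lead to ERK. They are the dual-specificity phosphatase genes Dusp1, Dusp2, Dusp4, Dusp5, Dusp6 and Dusp10, the Sprouty genes Spry1 and Spry2, and the Spred genes Spred1 and Spred2. The members were chosen by gene name, and all 10 were found among the 21362 gene names of the deposited tables. The study concerned sorafenib, a drug that inhibits RAF and several receptor tyrosine kinases, and its effect on CD4+ T cells. It deposited RNA sequencing of 6 mouse libraries, each labelled as CD4+ T cell with a running number. The labels give no treatment, dose, culture, strain, age or animal for any library, so no groups of libraries were formed from them. Means and medians were taken only over all 6 libraries, to filter or order genes. The libraries are called library 1 to library 6 after the number in their titles, and values given in a series follow that order.

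When the T cell receptor or a cytokine receptor is engaged, the small GTPase Ras activates the kinase RAF, which activates MEK, which in turn activates ERK. ERK signalling induces several of its own brakes. MAP kinase phosphatases remove the activating phosphates from ERK or from the related stress kinases JNK and p38, while Sprouty and Spred proteins act further up, between receptors, Ras and RAF. For this reason transcripts such as Dusp6, Spry2 and the transcription factor gene Etv5 are widely used as a readout of ERK activity. In T cells the phosphatases differ in place and substrate: some are induced nuclear enzymes, and Dusp6 acts in the cytoplasm.

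Levels are given in CPM, or counts-per-million, scaled for the composition of each library by TMM, with exact 95% intervals that cover counting error only. Total counts per library ran from 32435799 to 36316162, so that 3 counts, the limit that a count of 0 allows, stood for 0.0791 to 0.0966 CPM. Each gene's range sets its highest library against its lowest, with a prior count of 2. The interval on a count ratio leaves out the prior count and the picking of these 2 libraries from 6. Since the libraries are not known replicates, the range is a description and was not tested. All 7 T cell markers on the list were measured. Cd4, between 412 and 482 CPM, was highest in libraries 4, 5 and 6, and Cd3e, between 200.3 and 218 CPM, hardly differed. Lists of markers of myeloid, natural killer, erythroid, hepatocyte and dendritic cells summed to at most 12.8, 0.105, 0.287, 0.260 and 1.81 CPM. Cd8a reached at most 0.661 CPM and Cd8b1 9.57 CPM. In RNA of whole cell populations, fewer cells of a type and less RNA per cell cannot be told apart. Several whole-library measures differed between libraries along with the genes below. Mitochondrially encoded genes took 2.02%, 1.90%, 1.98%, 2.45%, 2.37% and 2.41% of counts. The 7 T cell markers summed to 2639, 2597, 2520, 2156, 2162 and 2207 CPM, with Cd28 supplying the most of the fall, at 848, 786, 783, 524, 510.2 and 507 CPM. Cd3g, Cd247, Cd5 and Lck were likewise highest in libraries 1, 2 and 3. The fibroblast and endothelial list, nearly all of it Pecam1, which T cells also express, summed to 43.8, 44.3, 38.8, 29.6, 28.9 and 33.0 CPM. The B cell list was low throughout, at 3.03, 2.75, 2.32, 4.38, 4.05 and 4.36 CPM. The part of these measures in the results was not tested.

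Of the 10 genes, all reached a mean of 1 CPM and 9 a mean of 10 CPM. Dusp4, Dusp5, Dusp6 and Spry2 ranged 1.5-fold or more, which is 4 of 10, against 27.6% of the 11516 genes whose mean reached 1 CPM. With a minimum mean of 5 CPM, which leaves out Spry2, it was 3 of 9 against 17.3%. Spry2 alone ranged 2-fold or more, against 10.5% of those genes, and without library 3 it did not. The median range of the 10 genes was 1.46-fold, and that of all genes was 1.29-fold. Spred1 had the smallest range of the 10 genes, 1.19-fold, but with plain total counts its range was 1.29-fold and that of Spred2, 1.14-fold, was the smallest.

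**Figure D1:**
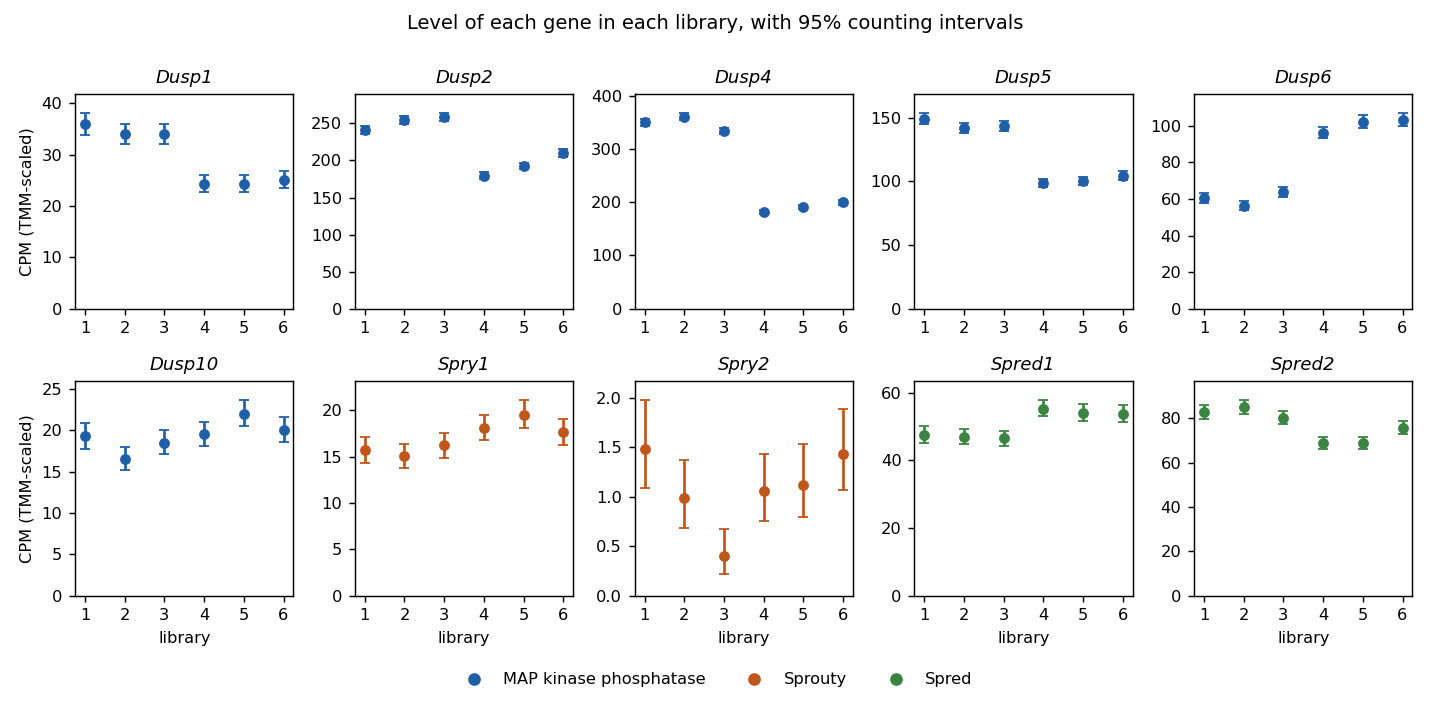
Level of each of the 10 genes in each library, as TMM-scaled CPM on linear axes that start at 0, with exact 95% counting intervals. Dusp4 lies at 334 CPM or higher in libraries 1, 2 and 3 and at 199 CPM or lower in libraries 4, 5 and 6, and Dusp6 has the opposite order, whereas the 4 genes of the Sprouty and Spred families move by less, apart from the scarce Spry2.

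Dusp1, Dusp2, Dusp4 and Dusp5 encode inducible phosphatases of the nucleus. Dusp4, which acts on ERK and on JNK, had 10883, 12464, 11633, 6869, 6633 and 7086 counts. On the scaled level these were 350.3, 360.3, 334, 181, 191 and 199 CPM. Libraries 1, 2 and 3 lay above the rest, with a gap of 1.67-fold between libraries 3 and 6, while no other step between neighbouring libraries exceeded 1.05-fold. The range was 1.99-fold, or 2.004-fold with DESeq2 size factors, and the ratio of the 2 counts had a 95% interval of 1.93 to 2.05. Of all genes, 89.4% had a smaller range.

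Dusp5, an ERK-specific phosphatase that also holds ERK in the nucleus, was present at 149, 142, 144, 98.7, 100.002 and 105 CPM. Its intervals in libraries 1, 2 and 3 began at 138 CPM or higher, and those in libraries 4, 5 and 6 ended at 108 CPM or lower. The range of Dusp5 was 1.51-fold, but 1.39-fold with plain total counts. Dusp1, an early-induced phosphatase of p38, JNK and ERK, was less abundant, at 35.9, 34.0, 33.9, 24.3, 24.3 and 25.0 CPM. Libraries 1, 2 and 3 were again the highest, and the range was 1.47-fold, with an interval of 1.35 to 1.61 on the count ratio. Once each gene was centred on its own median, Dusp1 and Dusp5 differed by at most 0.04 log2 units in any library, less than any other of the pairs that the 10 genes form.

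Dusp2, long known as PAC-1 and an ERK and p38 phosphatase of activated lymphocytes, was at 241, 255, 258, 179.7, 192 and 210.0 CPM. The libraries spread more evenly here than for Dusp5. The widest gap, 1.15-fold, lay between libraries 1 and 6, and the intervals of 14 of the 15 pairs of libraries did not overlap. With plain total counts the widest gap moved, and library 6 then stood with libraries 1, 2 and 3 above it. The range was 1.44-fold.

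The other phosphatase genes had a different order of libraries. Dusp6, the cytoplasmic phosphatase with a strong preference for ERK, had 1875, 1952, 2221, 3650, 3562 and 3682 counts. Its level was 60.3, 56.4, 63.7, 96.2, 102 and 104 CPM. Libraries 4, 5 and 6 were the highest, the reverse of Dusp4, and a gap of 1.51-fold parted library 4 from library 3. The range of Dusp6 was 1.83-fold, with an interval of 1.74 to 1.94 on the count ratio, and 1.98-fold with plain total counts. Without library 2 it was 0.77 on the log2 scale, against 0.87 with all 6. Dusp10, a phosphatase of JNK and p38 rather than ERK, stood at 19.3, 16.6, 18.5, 19.5, 22.0 and 20.05 CPM. It was lowest in library 2 and highest in library 5, and only 4 of the 15 pairs of libraries had intervals apart. Its range of 1.33-fold was close to the median of all genes, and without library 2 it was 1.18-fold.

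Because Dusp4 and Dusp6 differ in opposite directions, their ratio within a library varied more than either gene, and such a ratio does not depend on the scaling between libraries. There were 5.80, 6.39, 5.24, 1.88, 1.86 and 1.92 Dusp4 counts for each Dusp6 count. The 95% interval was 5.005 to 5.48 in library 3 and 1.85 to 2.003 in library 6, so the intervals of libraries 1, 2 and 3 lay far above the rest. On the deposited FPKM (CPM of the library total per kilobase of gene length), Dusp4 was 3.19, 3.50, 2.87, 1.03, 1.02 and 1.06 times as high as Dusp6. Per kilobase of the longest coding transcript in GENCODE the same ratio was 5.92, 6.52, 5.34, 1.92, 1.90 and 1.96. The fold between libraries is the same on all of these scales, while the statement that both genes stood nearly level in libraries 4, 5 and 6 holds for FPKM alone.

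The summed FPKM of the 6 phosphatase genes was 316, 320.4, 324, 252, 265 and 278. Dusp2 supplied the largest share in every library, between 45.1% and 48.3%. The share of Dusp4 was 18.1%, 18.4%, 17.0%, 12.8%, 12.8% and 12.7%, and that of Dusp6 was 5.68%, 5.25%, 5.91%, 12.4%, 12.6% and 11.98%. Dusp5 supplied between 21.4% and 24.9%. In all 6 libraries the order of the phosphatases by FPKM was Dusp2, Dusp5, Dusp4, Dusp6, Dusp1 and Dusp10. Per longest coding transcript Dusp4 and Dusp5 changed places, in all 6 libraries, and the share of Dusp4 was between 24.1% and 33.7%.

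**Figure D2:**
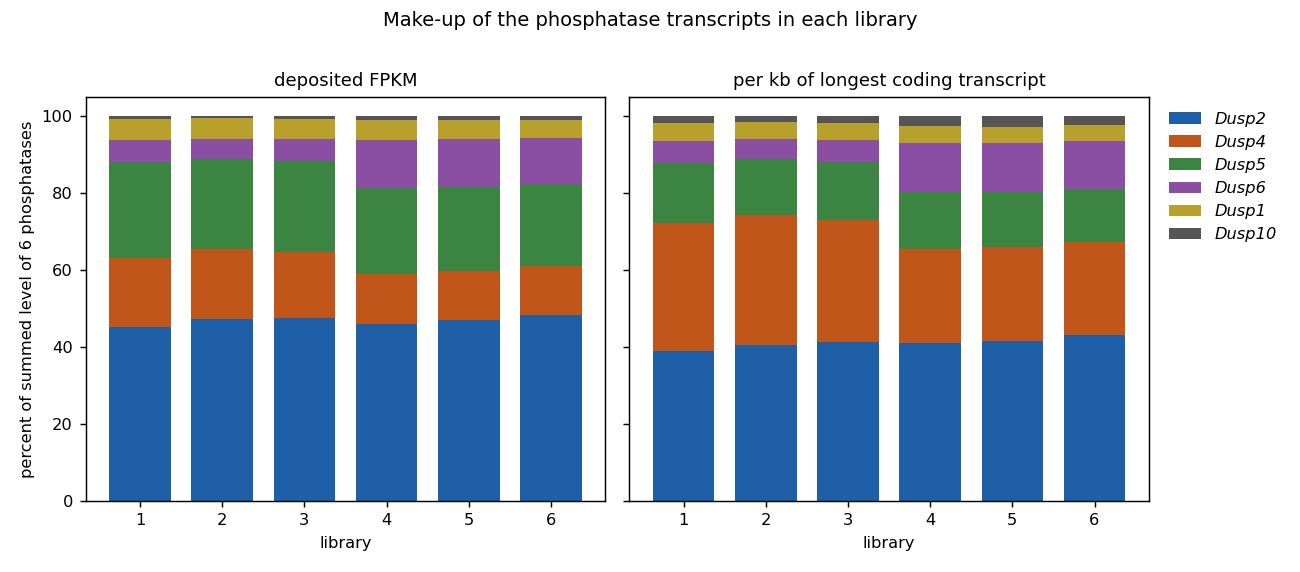
Stacked bars give the percentage of the summed level of the 6 phosphatase genes that each supplied in each library, with levels as deposited FPKM on the left and per kilobase of the longest coding transcript on the right. The Dusp6 share is 5.25% to 5.91% of FPKM in libraries 1, 2 and 3 and 11.98% to 12.6% in libraries 4, 5 and 6, and the Dusp4 share depends on the length used.

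Promoters of Dusp5, Dusp1 and Dusp2, which were highest in libraries 1, 2 and 3, and of Dusp6, which had the reverse order, are shown so that genes of shared and of opposite order can be compared. Promoter windows from RefSeq (assembly GRCm38.p6) were matched for 9 of the 10 genes, and no window was available for Dusp4. Each line below gives the 250 bases before the annotated start, 5′ to 3′ on the strand of the gene. Capitals mark matches on either strand to a CArG box (the serum response factor motif), to TGACGT (the core of the cyclic AMP response element) or to GGGCGG (the GC box).
Dusp5 (chr19:53528895-53529144, + strand): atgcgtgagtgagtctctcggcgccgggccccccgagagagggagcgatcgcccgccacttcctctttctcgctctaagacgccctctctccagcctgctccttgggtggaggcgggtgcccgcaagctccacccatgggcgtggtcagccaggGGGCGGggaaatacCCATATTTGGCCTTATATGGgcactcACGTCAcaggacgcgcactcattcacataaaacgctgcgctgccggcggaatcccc
Dusp1 (chr17:26508473-26508722, - strand): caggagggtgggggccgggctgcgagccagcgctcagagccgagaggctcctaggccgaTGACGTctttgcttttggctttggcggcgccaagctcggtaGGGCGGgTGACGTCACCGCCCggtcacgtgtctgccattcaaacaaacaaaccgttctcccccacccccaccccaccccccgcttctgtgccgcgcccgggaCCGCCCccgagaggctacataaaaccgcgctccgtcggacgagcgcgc
Dusp2 (chr2:127335909-127336158, + strand): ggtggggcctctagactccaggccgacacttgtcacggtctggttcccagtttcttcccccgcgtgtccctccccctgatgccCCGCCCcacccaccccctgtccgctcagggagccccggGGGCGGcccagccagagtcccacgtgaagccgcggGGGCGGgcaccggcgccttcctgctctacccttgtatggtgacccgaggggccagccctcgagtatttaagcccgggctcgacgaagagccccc
Dusp6 (chr10:99262981-99263230, + strand): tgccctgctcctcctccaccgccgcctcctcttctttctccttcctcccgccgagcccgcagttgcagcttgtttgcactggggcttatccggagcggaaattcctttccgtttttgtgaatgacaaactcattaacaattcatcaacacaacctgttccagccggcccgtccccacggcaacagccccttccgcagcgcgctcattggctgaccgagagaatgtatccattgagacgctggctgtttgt

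Dusp5 carried 2 CArG boxes side by side, CCATATTTGG from 82 to 73 and CCTTATATGG from 72 to 63 bases before the start. As background, serum response factor binds this motif together with Ets-family partners that ERK phosphorylates. Of 27025 genes with a window of that length, 1.40% held a CArG box, and 5 genes, or 0.0185%, held 2 or more. Dusp1 held the full palindrome TGACGTCA from 143 to 136 bases before its start, which 1.62% of genes held. The shorter TGACGT, which lies within that palindrome on both strands, was found in Dusp1, Dusp5 and Spred2, and in 6.56% of all genes. Dusp2 had only GC boxes, and Dusp6 had no match to any motif searched. GGGCGG was found in 7 of the 9 genes and in 32.9% of all genes. GGAAAA, an NFAT motif, was found in Spry2 and Spred2 and in 20.6% of all genes. The shorter GGAAA, which the windows of Dusp5 and Dusp6 hold, was not searched. TGANTCA, the AP-1 motif, and CCGGAA, an Ets motif, were found in 0 of the 9 genes, against 6.87% and 12.2% of all genes. The windows of the 9 genes held between 56% and 70.8% G and C. The shares over all genes were not matched for this, nor limited to genes measured here. A match is a run of letters and does not show that a factor binds.

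The Sprouty genes were low in these cells. Spry1, which encodes an inhibitor of receptor signalling to Ras and RAF, stood at 15.7, 15.1, 16.2, 18.1, 19.5 and 17.7 CPM. Libraries 4, 5 and 6 were the highest, but the widest gap was 1.09-fold and only 4 of the 15 pairs had intervals apart. The range was 1.30-fold, or 1.41-fold with plain total counts. Spry2, the best-studied member of the family, was scarce, with 46, 34, 14, 40, 39 and 51 counts. These were 1.48, 0.983, 0.402, 1.05, 1.12 and 1.43 CPM, and the interval was 0.220 to 0.674 CPM in library 3, whereas library 1 had 1.08 to 1.97 CPM. Library 3 stood below the other 5, and 5 of the 15 pairs of libraries had intervals apart. The range was 3.35-fold with the prior count, and the ratio of the 2 counts was 3.69, with an interval of 1.99 to 7.26. On the log2 scale the range fell from 1.74 to 0.56 without library 3.

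Both Spred genes varied little. Spred1, which brings the Ras inactivator neurofibromin to the membrane, stood at 47.5, 47.0, 46.5, 55.3, 54.1 and 53.8 CPM. Libraries 4, 5 and 6 were higher, and all 3 of their intervals began above those of libraries 1, 2 and 3. The gap was 1.13-fold, or 1.22-fold with plain total counts. Spred2, its close relative, stood at 82.9, 85.0, 80.2, 68.8, 68.7 and 75.7 CPM. Libraries 1, 2 and 3 were the highest and libraries 4 and 5 the lowest, with library 6 in between, and the range was 1.24-fold, or 1.14-fold with plain total counts. Per library there were 1.74, 1.81, 1.73, 1.24, 1.27 and 1.41 Spred2 counts for each Spred1 count, so the balance of both genes shifted even though neither moved far.

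Levels of different genes can be set side by side only per length, and the order then depended on the length. By median FPKM, Dusp2 led with 138, followed by Dusp5 with 67.2, Dusp4 with 45.1, Dusp6 with 25.2 and Dusp1 with 15.04. Spred1 had 7.15, Spry1 6.80, Dusp10 2.32, Spred2 2.05 and Spry2 0.256. Neighbours in this order whose ranges over the 6 libraries overlapped were Dusp5 and Dusp4, Dusp4 and Dusp6, Dusp6 and Dusp1, Spred1 and Spry1, and Dusp10 and Spred2. The lengths behind the deposited FPKM, recovered from counts and totals, were close to the longest GENCODE coding transcript for most genes, with a median ratio of 1.07 over 10557 genes. For Spred2, however, the length was 37937 bases against a longest coding transcript of 4449 bases, 8.53 times as long, and 99.7% of genes had a lower ratio. Dusp10 had 8386 against 2792 bases, Dusp4 5857 against 2740 and Spry2 4440 against 2087. Dusp5 went the other way, with 1815 against 2473 bases.

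As CPM of the library total per kilobase of the longest coding transcript, Spred2 stood at the fifth place and no longer at the ninth. Its median was 17.5, above Spred1 with 8.40. Spred1 was thus 3.08, 2.97, 3.11, 4.32, 4.22 and 3.81 times as high as Spred2 by FPKM, while Spred2 was 2.36, 2.45, 2.33, 1.68, 1.72 and 1.90 times as high as Spred1 per transcript. Dusp4 moved up to the second place, with 96.4, and its range overlapped that of Dusp2 at 138. Dusp5 had 49.3, Dusp6 29.0, Dusp1 14.7, Dusp10 6.96, Spry1 6.11 and Spry2 0.544. Besides Dusp2 and Dusp4, the overlapping neighbours were Spred2 and Dusp1, Spred1 and Dusp10, and Dusp10 and Spry1. Neither length is known to be that of the transcripts these cells make, and ranges between libraries do not depend on it.

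**Figure D3:**
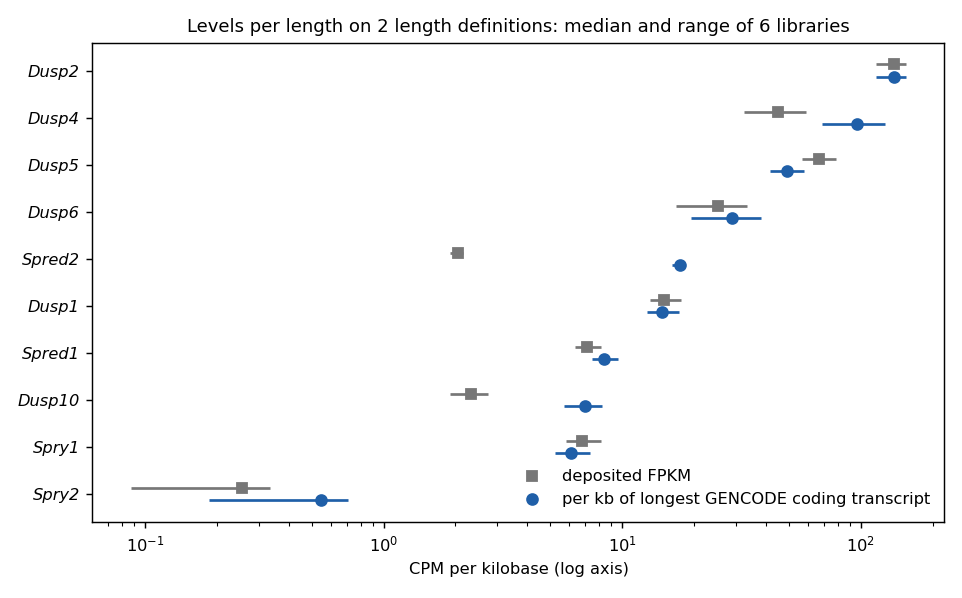
Median level of each gene (symbols) with its lowest and highest library (lines), as CPM per kilobase on a log axis, for the deposited FPKM (squares) and per kilobase of the longest GENCODE coding transcript (circles). Spred2 moves from 2.05 to 17.5 and Dusp10 from 2.32 to 6.96, while Dusp1, Dusp2 and Dusp6 hardly move.

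For members that averaged 10 CPM or more and ranged 1.5-fold or more, the genes with the most similar pattern were sought among 8208 genes. Likeness was the largest difference in any library between the log2 levels of 2 genes, each centred on its own median, so that a small value means a similar pattern. The gene nearest to Dusp6 was Etv5, an Ets-family transcription factor gene that is induced through ERK in many cells, with a largest difference of 0.05. Etv5 stood at 11.3, 10.5, 11.6, 18.8, 19.9 and 19.2 CPM, highest in the same 3 libraries as Dusp6. Adsl, an enzyme of purine synthesis, and Synj2, a phosphoinositide phosphatase, followed with 0.07 each. Nearest to Dusp4 were Rnf152, a ubiquitin ligase gene, Itga7, an integrin chain gene, and Tanc2, a scaffold protein gene, with 0.05, 0.05 and 0.07. Nearest to Dusp5 were Eif5a, a translation factor gene, Maml2, a Notch co-activator gene, and Id2, an inhibitor of helix-loop-helix factors, with 0.02, 0.02 and 0.04. By the mean difference in place of the largest, 1 of the 3 genes nearest to Dusp4 stayed among the nearest, and 2 of 3 for Dusp5 and for Dusp6. These likenesses describe 6 libraries that share their processing, and many genes differed between the same libraries.

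**Figure D4:**
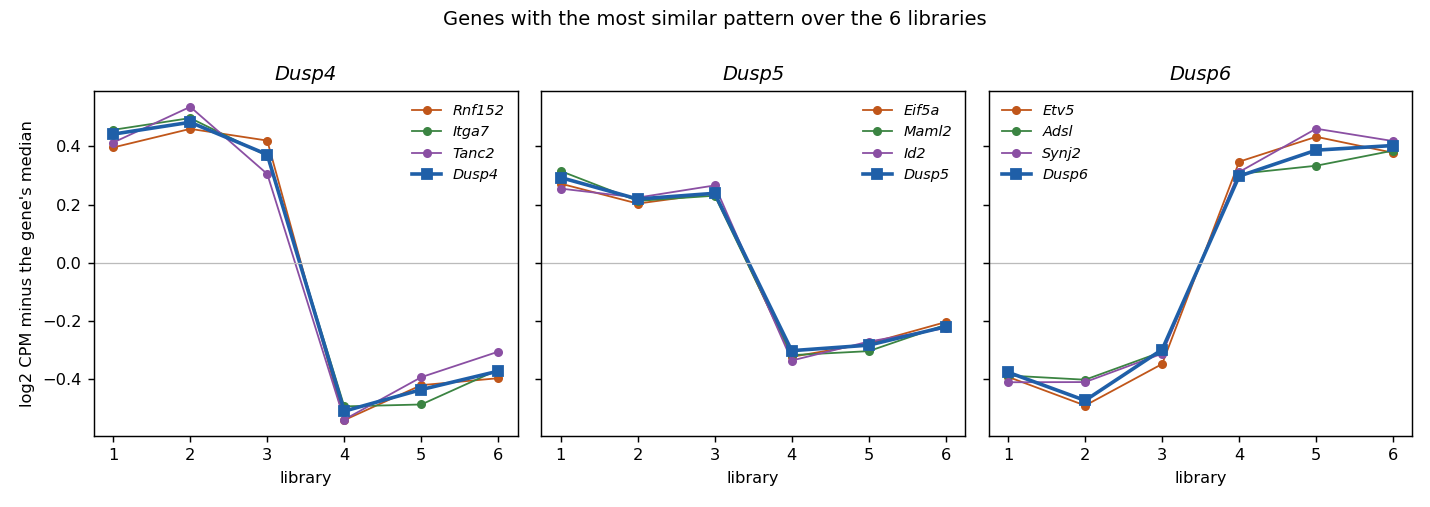
Log2 CPM of Dusp4, Dusp5 and Dusp6 (squares, thick line) and of the 3 genes nearest to each in pattern (circles), each minus its own median, by library. Lines join libraries only to guide the eye. Dusp6 and Etv5 are both low in libraries 1, 2 and 3 and high in libraries 4, 5 and 6, and the genes around Dusp4 and Dusp5 have the reverse order.

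Other genes of the pathway were taken from 7 lists with 57 names, of which 56 were in the tables and 54 reached a mean of 1 CPM. Of these, 18, or 33.3%, ranged 1.5-fold or more, against 27.6% of all genes, among them 7, or 12.96%, with 2-fold or more, against 10.5%. Both shares lie near those of all genes. The core cascade hardly varied as a sum. The 14 genes from the Ras exchange factors to ERK itself summed to 1734, 1725, 1741, 1749, 1735 and 1724 CPM, with a median range of 1.19-fold. Rasgrp1, the exchange factor through which the T cell receptor activates Ras, was the most abundant, with 227, 216, 209, 301, 292 and 299 CPM. Among the 7 Ras brakes, which return Ras to its inactive state or oppose it as adaptors, Rasal3 was the most abundant, between 317 and 383 CPM. Rasa3 alone of these ranged 1.5-fold, between 41.3 and 71.4 CPM, lowest in library 2 and highest in library 5.

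Among 6 other dual-specificity phosphatases that could be measured, Dusp16, a phosphatase of JNK and p38, was both the most abundant and the most variable. It stood at 59.4, 62.2, 52.3, 31.6, 28.3 and 31.5 CPM, highest in libraries 1, 2 and 3, as Dusp4 was. Dusp7, a cytoplasmic ERK phosphatase like Dusp6, stood at 20.3, 24.2, 21.3, 30.6, 30.1 and 28.8 CPM, highest in libraries 4, 5 and 6. It was chosen for mention after its values were seen, as a close relative of Dusp6. Of the other Sprouty and Spred genes, Spred3 stood at 43.5, 41.6, 38.6, 22.4, 27.7 and 28.6 CPM, a range of 1.94-fold, and Spry4 lay between 1.04 and 2.53 CPM.

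Transcripts known to be induced through ERK had no single order of libraries. Of 13 that could be measured, 8 ranged 1.5-fold or more, against 27.6% of all genes. Of these, 3 ranged 2-fold or more, against 10.5%, and the median range was 1.61-fold. Among the 3, Fosb and Etv4 were scarce, with means of 1.03 and 3.24 CPM. A minimum mean of 5 CPM leaves both out, and the share of all genes at 2-fold was then 4.69%. The widest gap put libraries 1, 2 and 3 above the rest in 4 of the 13 and libraries 4, 5 and 6 above in 3. It lay elsewhere in 6, and with plain total counts these numbers were 3, 6 and 4. Junb, an AP-1 factor gene and the most abundant of the list, was highest in library 1 and lowest in library 4, as Dusp5 was, at 820.1 and 510.4 CPM. Egr3, an early growth response factor gene and the most variable, had the opposite order, with 23.9, 25.8, 30.9, 73.9, 70.6 and 66.6 CPM. Ets1, the most abundant of 6 transcription factor genes of the Ets and serum response families, ranged from 518 to 722 CPM, and Ets2, the most variable, from 34.6 to 57.6 CPM. Among 6 stress kinase genes, Mapk14, which encodes p38 alpha, lay between 83.4 and 97.3 CPM. Mapk13, which encodes p38 delta, was scarce and lay between 0.501 and 1.78 CPM.

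**Figure D5:**
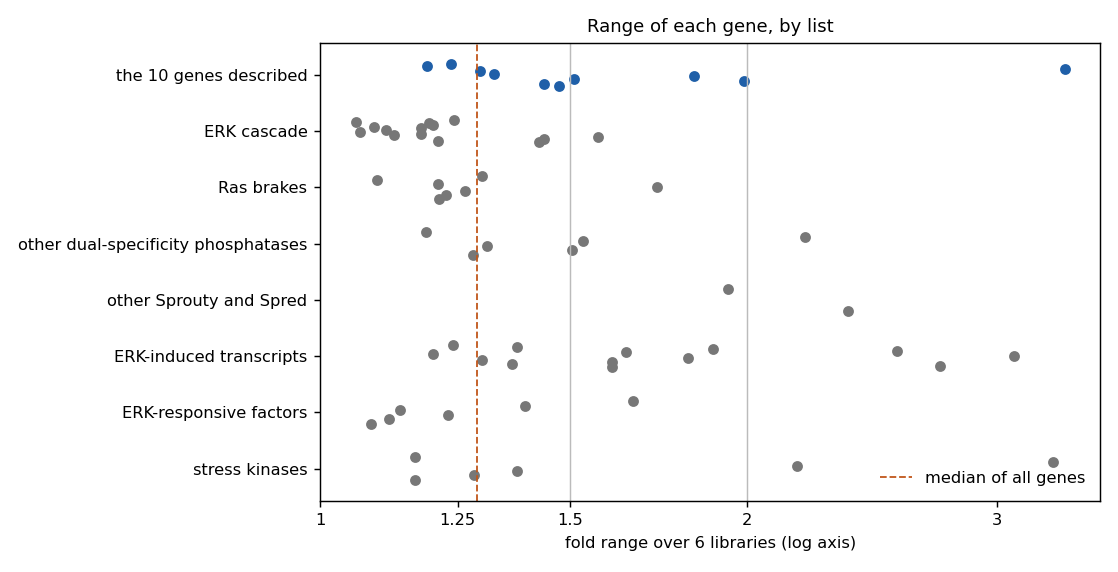
Fold range over the 6 libraries, highest against lowest, on a log axis for each gene whose mean reached 1 CPM, by list, with the median of all genes, 1.29-fold, as a dashed line and thin lines at 1.5-fold and 2-fold. The ERK cascade lies mostly below the dashed line, with a median of 1.19-fold, and the ERK-induced transcripts mostly above it, with a median of 1.61-fold.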

How the data were processed

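RNA was extracted with TRIzol and prepared for sequencing with a VAHTS Universal V5 kit, per the protocols in the labels. For the reads, fastp, HISAT2 and HTSeq, the assembly GRCm39, and DESeq2 with R 3.2.0 are named in the submitters' processing notes, which give no order or settings. Neither annotation nor strand setting is given in the sources used here, so reads of overlapping or antisense genes could not be told apart. The authors deposited raw read counts per gene, and FPKM values that the authors computed from the same reads by gene length and library total. The length behind each deposited FPKM was recovered from them and was the same in all libraries within a relative 2.39e-07, so FPKM is another scaling of the same reads.

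Counts were scaled with TMM in edgeR 4.0.16 (R 4.3.3), with factors from 0.958 to 1.04, and analysed in Python 3.11.15 (scipy 1.17.1, pandas 2.3.3, numpy 2.4.6; figures by matplotlib 3.10.9). Ranges used log2 CPM with a prior count of 2, over genes averaging 1 CPM or more. Clopper-Pearson intervals of 95% cover counting error only and treat reads as independent. PCR reads are not independent molecules, so the intervals may be too narrow. Transcript lengths came from GENCODE vM21, and promoters from RefSeq, both of the earlier assembly GRCm38. The first promoter listed for a gene was used. The calculation of the range was tried on simulated counts with known folds and counting error only. This cannot show how far real libraries vary, so it bears on the arithmetic alone.

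The labels name 0 groups, so each library was described alone and no test between libraries was made. Members, lists and rules were chosen with earlier results of these data known. Genes named are the 10 members, the most abundant and most variable gene of each pathway list, and the 3 genes nearest in pattern (mean of at least 10 CPM). Alternatives tried were plain total counts, size factors of DESeq2 1.42.0, FPKM plus a pseudocount of 0.1, a prior count of 0.5, a minimum mean of 5 CPM and no minimum, each library left out, likeness by the mean difference or with a minimum mean of 1 CPM, and counts not divided by length. Transcript lengths were added after seeing the data.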

Additional observations from a re-analysis of the deposited data

How the results depend on the processing

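Over 100 recomputed ranges of the 10 genes, 17 fell outside the counting interval of the reported range, most of them with plain total counts or FPKM. TMM moved libraries against each other by up to 0.12 log2 units relative to total counts, and DESeq2 size factors by up to 0.15, so plain total counts lowered the ranges of Dusp1, Dusp2, Dusp4, Dusp5 and Spred2 and raised those of Dusp6, Dusp10, Spry1, Spred1 and Spry2. Dusp4 ranged between 0.87 and 1.003 log2 units over the alternatives, Dusp6 between 0.77 and 0.98, Dusp5 between 0.47 and 0.62, and Spry2 between 0.56 and 1.85. With DESeq2 size factors 2 of the 10 genes, Dusp4 and Spry2, ranged 2-fold or more, and with each library left out in turn the number was 1 or 2, with Dusp4 in place of Spry2 without library 3. At 1.5-fold the number was 5 with DESeq2 size factors, which added Dusp1, and 3 with total counts or FPKM and without library 1 or 4, where Dusp5 was lost, and 3 without library 3, where Spry2 was lost. The share of all genes at 2-fold was 4.69% with a minimum mean of 5 CPM and 32.2% without one, and at 1.5-fold 17.3% and 55.0%; the cause was not tested. Dusp4 supplied 41.7% of the counts of the phosphatases in library 2 and 30.2% in library 4 when counts were not divided by length. Depth limits Spry2, with 14 to 51 counts a library. No paired analysis was possible because the labels name no groups.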

Other observations

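In Dusp1, Dusp2, Dusp4 and Dusp5, 4 of the 10, the widest gap between neighbouring libraries lay between libraries 1, 2 and 3, above, and libraries 4, 5 and 6. In Dusp6, Spry1 and Spred1, 3 of the 10, the same gap had libraries 4, 5 and 6 above. Among all 11516 genes the first pattern was found in 18.7% and the second in 16.1%. Dusp10, Spry2 and Spred2 had the widest gap elsewhere. With plain total counts or FPKM, Dusp2 also left the first set.

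Among libraries 1, 2 and 3, Spry2 was the only one of the 10 genes that differed by 1.5-fold or more in any pair, and it did so between library 3 and each of the other two. Among libraries 4, 5 and 6, 0 of the 10 genes did. Between library 1 and library 4 it was Dusp4, Dusp5 and Dusp6, the only pair in which Dusp5 did so. Between library 2 and library 5 it was Dusp4 and Dusp6. Of all genes, 2.61% differed by that much between libraries 1 and 2, 2.72% between 1 and 3, and 2.07% between 2 and 3. The share was 1.91% between libraries 4 and 5, 2.36% between 4 and 6, and 2.06% between 5 and 6. It was 15.1% between libraries 1 and 4 and 13.8% between libraries 2 and 5. The median difference of the 10 genes was 1.05-fold between libraries 1 and 2, 1.06-fold between libraries 4 and 5, and 1.36-fold between libraries 1 and 4. Over all genes the median was 1.06-fold, 1.05-fold and 1.17-fold for the same pairs, in that order. Other pairs differed from this. Between libraries 1 and 6 the median of the 10 genes was 1.14-fold, below the 1.17-fold of all genes. Between libraries 3 and 4 it was 1.42-fold, against 1.15-fold. The labels do not say what, if anything, distinguishes these libraries.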
